A study of Drosophila melanogaster with 12 samples.

Results

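Male flies that carried tko25t were compared with wild-type males on 6 of the 12 arrays of the series, 3 arrays for each genotype, and the comparison was read across gene families and across classes of sex-biased transcripts. All flies were whole adults aged 1 day, reared on one medium, and belonged to an F1 generation whose mothers were Canton S and whose fathers were Oregon R. In the mutant groups both parental strains carried tko25t, which had been outbred into each strain and kept there over a balancer, and in the wild-type groups neither did. The gene is X-linked, so a mutant male has only the mutant allele. Each array was hybridised with RNA from its own group of males, and the methods describe collection from 3 independent crosses. The arrays hold whole flies, so a tissue enters each value through its size as well as through its transcripts: fewer cells of a type and less RNA per cell cannot be told apart in any value below.

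The gene tko encodes S12, a protein of the decoding centre of the mitochondrial ribosome. That ribosome translates the few proteins encoded by mitochondrial DNA, all of them subunits of respiratory chain complexes and of ATP synthase, while its own proteins are nuclear-encoded and imported. The mutant is known for slow larval development, sensitivity to mechanical shock and poor male courtship. Adult males carry large organs that females lack, above all the testis and the accessory gland. The developing sperm of the testis fuse their mitochondria into a single derivative and use a set of testis-specific copies of metabolic, proteasomal and translation proteins.

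Values are MAS5 signals on a linear scale, which the authors scaled so that the trimmed mean of every array is equal. Of 18952 probe sets, 183 are controls, and the 10045 with the highest mean signal over the 6 male arrays were tested, the lowest at a mean signal of 43.7. A probe set under this level in one genotype could pass through the other alone, and the filter then favoured its direction. A difference is the mutant mean minus the wild-type mean of log2(signal + 11.6), an offset that pulls differences of dim probe sets towards 0, and SE is its standard error. It is called, and described as a rise or a fall, where limma's test gave a Benjamini-Hochberg adjusted p under 0.05 over all probe sets tested. Array values are always listed for replicates 1, 2 and 3 in that order, and a gene with several probe sets is represented by the brightest. The probe set of tko read 314, 257 and 358 in mutant males and 182, 239.6 and 227 in wild-type males, a difference of 0.49 (SE 0.15, adjusted p = 0.0609) that was not called, and as the mutation changes a single base the probe set checks no label.

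Arrays of one genotype correlated at 0.963 to 0.984 and arrays of different genotypes at 0.917 to 0.962. Further values ran beside genotype. The 3 control probe sets for 18S ribosomal RNA read between 69.1 and 357 on the mutant arrays and between 990.2 and 4075 on the wild-type arrays of males, whereas female arrays read 6.5 to 189.6 in mutants and 15.3 to 112 in wild type, so the high signal was seen in wild-type males alone of the 4 groups. Its part in the male differences was not tested. Of 14 matched eggshell and yolk markers, which adult females make, the summed signal was 0.602%, 0.313% and 0.375% of the female mean in mutant males and 7.13%, 4.26% and 0.588% in wild-type males. Wild-type replicates 1 and 2 stood apart from the other 4 male arrays in this sum, wild-type replicate 3 lay among the mutants, and none of these markers was listed at 0 on a male array. Testis markers (15 of 15 matched, 12 tested, 5 called lower) summed to 78.6% to 100.3% of the male mean in mutants and 102% to 118% in wild type, and accessory gland markers (8 of 8, 2 called lower) to 80.1% to 99.96% and 100% to 117%. Both organs were present by their defining markers in every male group. Markers of muscle, neurons, photoreceptors and midgut gave no call. For neurons only 2 of 4 matched markers were tested, and elav among them differed by -0.54 (adjusted p = 0.0537).

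In all, 556 probe sets (5.54% of those tested) were higher and 568 (5.65%) lower in mutant males, and 2828 had an unadjusted p under 0.05. Over the 8428 genes with a probe set of their own, 477 (5.66%) were higher and 489 (5.80%) lower. Rises reached further, with 130 of the called rises and 78 of the called falls over 2-fold and 32 and 15 over 4-fold in mean signal, and rises came almost wholly from transcripts without sex bias. The median difference over all probe sets was -0.01. Centring each array on the probe sets without sex bias moved this median to -0.07 and the split to 405 higher and 728 lower, so the share of higher calls fell from 49.5% to 35.7%. Single arrays weighed on the counts. Leaving out mutant array 1 gave 224 higher and 209 lower, mutant array 3 gave 278 and 217, and wild-type array 2 gave 318 and 283. The falls alone numbered 343 when wild-type array 1 was omitted and 322 when wild-type array 3 was. With any 1 array left out in turn, 198 of the 556 rises and 155 of the 568 falls stayed called every time.

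A transcript was classed by the mean log2 signal of the 6 male arrays minus that of the 6 female arrays, above 2 as male-biased and below -2 as female-biased. Male-biased probe sets were 1384 of those tested (13.8%) and held 53.9% of all falls. Of them 306 (22.1%) fell and 5 rose. The median difference was -0.28, with quartiles of -0.42 and -0.13, and 1223 of the 1384 (88.4%) lay below 0, so the shift was small and broad: only 15 calls in the class exceeded 2-fold. The class median of log2 signal was 7.81, 7.89 and 7.68 on the mutant arrays and 8.11, 8.04 and 8.08 on the wild-type arrays. Every mutant array lay below every wild-type array, and mutant replicate 3, the lowest of them, also had the lowest sums of testis and accessory gland markers. The part of organ size in this shift was not tested. Falls numbered 103 when mutant array 1 was omitted, 111 for mutant array 3 and 145 for wild-type array 3, and between 145 and 229 for mutant array 2 and for wild-type arrays 1 and 2, and 80 of the 306 stayed called each time an array was left out. The class median was again -0.28 with wild-type replicate 3 alone as the control, where 19 falls were called.

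**Figure D1:**
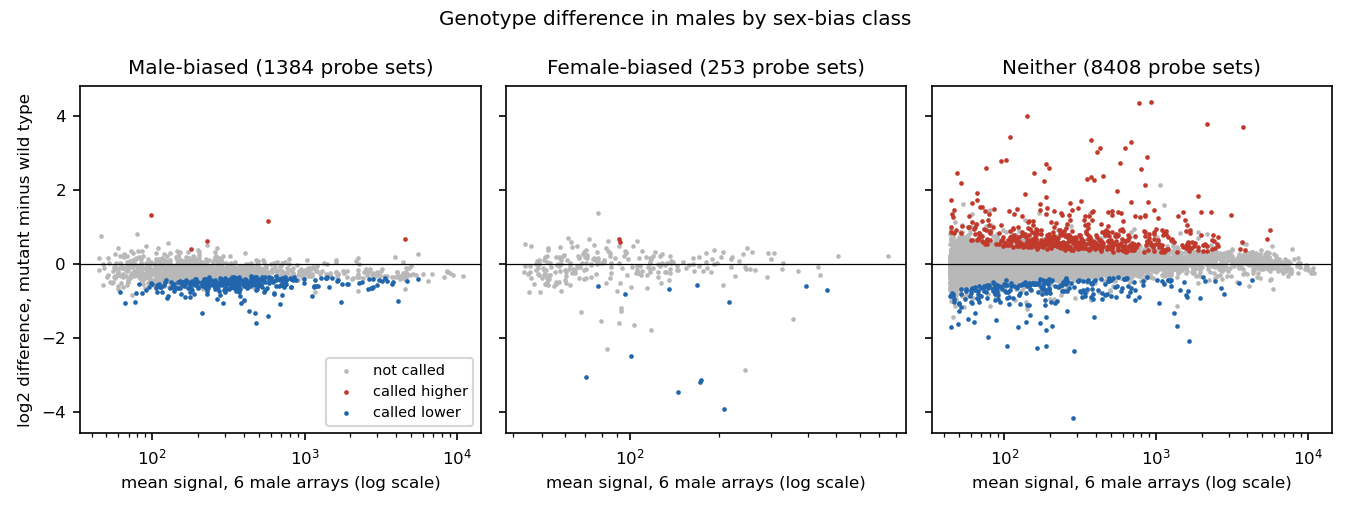
Log2 difference between mutant and wild-type males (vertical axis, log2 units) against mean signal over the 6 male arrays (horizontal axis, log scale), 1 point for each probe set tested, in panels for 1384 male-biased, 253 female-biased and 8408 other probe sets, with calls in red (higher) and blue (lower). Most of the male-biased cloud lies below 0 with 5 red points, and called rises above 2 units stand only in the panel of transcripts without sex bias.

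The share of falls climbed with the strength of male bias. Of probe sets 1 to 2 log2 units higher in males 9.72% fell, and of those 2 to 3 units higher 11.05%, so the boundary of the class marks no step. The share was 27.1% at 3 to 4 units, 30.7% at 4 to 5, 35.7% at 5 to 6 and 21.7% of the 46 above 6. The medians of these bins ran from -0.17 through -0.24, -0.28, -0.31 and -0.34 to -0.32. The share also differed with signal: in 4 equal groups of the male-biased class by mean signal, from dim to bright, 27, 61, 100 and 118 of 346 probe sets fell, with medians from -0.22 to -0.32.

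**Figure D2:**
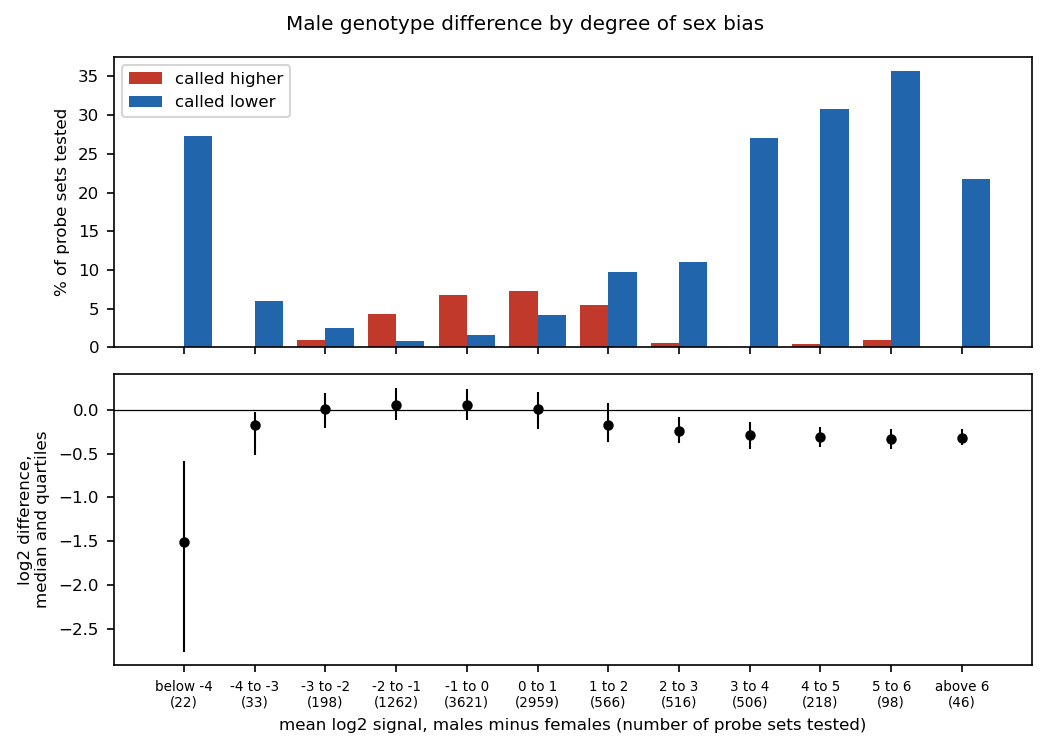
Percent of probe sets called higher (red) and lower (blue) in mutant males (top), and the median (point) and quartiles (line) of the log2 difference (bottom), in bins of the mean log2 signal of males minus females (horizontal axis, number tested in brackets). Falls reach 35.7% at 5 to 6 units of male bias, where the median is -0.34, and the 22 probe sets below -4 units have a median of -1.51. The latter include yolk and eggshell genes that passed the filter on mean signal only through wild-type replicates 1 and 2.

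The fall of male-biased transcripts was not limited to the families listed here. Of 84 male-biased genes on the testis lists 19 fell (22.6%, median -0.26), of 35 on the accessory gland list 7 fell and 1 rose (20.0%, -0.27), and of 1092 on no list 239 fell (21.9%, -0.28). By chromosome arm, 48 of 146 male-biased genes on the X fell (32.9%, median -0.40), against 21.5% on 2L, 19.01% on 2R, 18.9% on 3L and 21.7% on 3R with medians of -0.24 to -0.28. No test of the difference between arms was run. For genes without sex bias the X stood at a median of 0.04, with 6.73% higher and 2.73% lower.

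Sperm structure was represented by 51 tested genes, of which 9 fell, 1 rose and the median was -0.27. Of these genes 42 were male-biased, and over all male-biased probe sets 22.1% fell. The count thus shows nothing particular to sperm genes. Tpl94D, not on this list, encodes a transition protein that replaces histones in the elongating spermatid nucleus. It read 333, 302 and 294 in mutant males and 871, 803 and 832 in wild-type males. All mutant values lay far below all wild-type values, a difference of -1.40 (SE 0.10, adjusted p = 7.68e-05). The testis phosphatase Pp1-13C read 226, 256 and 222 in mutant males and 383, 408 and 354 in wild-type males, and the groups were separate again, at -0.68 (SE 0.11, adjusted p = 0.00616). Mst84Dd and Mst87F encode cysteine-rich proteins of the sperm tail, and their differences were -0.54 (SE 0.11, adjusted p = 0.0176) and -0.49 (SE 0.11, adjusted p = 0.028). The call of Mst84Dd was lost on leaving out mutant array 1 or 3 (adjusted p = 0.0558 to 0.0794), and that of Mst87F on leaving out mutant array 1, 2 or 3 or wild-type array 1 or 3 (adjusted p = 0.0501 to 0.108). With 1 array left out the sperm list held 1 to 8 falls, fewest without mutant replicate 1. The riser was Sdic3, of a cluster of sperm dynein intermediate chain genes on the X. It read 352, 347 and 302 in mutant males and 42.5, 40.7 and 42.1 in wild-type males, 7.99-fold higher in mutants with no overlap, a difference of 2.69 (SE 0.12, adjusted p = 7.20e-06). Members of that cluster are near-identical copies, so the copy behind the signal is uncertain. The wild-type mean of Sdic3, 41.8, lay just under the lowest mean signal tested, so the filter favoured its direction.

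Of 33 testis copies of mitochondrial and sugar enzymes 8 fell and none rose, with a median of -0.25. The counts of this paragraph stand beside falls in 22.1% of male-biased probe sets and 5.80% of all genes. Counts near the share of their class say nothing about a family. Glut3, a glucose transporter of the testis, read 114, 115 and 104 in mutant males and 230.4, 246 and 174 in wild-type males. The groups did not overlap, at -0.89 (SE 0.14, adjusted p = 0.00693). Hex-t2, a testis hexokinase, read 426, 453 and 365 in mutant males and 792, 631 and 612 in wild-type males, a difference of -0.69 (SE 0.13, adjusted p = 0.0114). CG17637 differed by -0.73 (SE 0.11, adjusted p = 0.00541), and 5 of the 8 falls, these 3 among them, stayed called whichever array was left out. Of 12 testis proteasome subunits 2 fell, Prosbeta2R2 at -0.43 (adjusted p = 0.035) and Prosalpha6T at -0.36 (adjusted p = 0.0431), and both calls were lost whichever array was left out (adjusted p = 0.0539 to 0.140 over the 2). Of 26 proteasome subunits used in all tissues none was called, and their median was -0.02. Of 39 initiation factors 4 fell, and the 3 largest of these falls were in male-biased genes. eIF4H2 read 399, 393 and 336 in mutant males and 629.5, 629.9 and 548 in wild-type males, a difference of -0.67 (SE 0.11, adjusted p = 0.00708). The cap-binding paralogs eIF4E5 and eIF4E7 differed by -0.42 (adjusted p = 0.0205) and -0.41 (adjusted p = 0.0414), calls lost on leaving out mutant array 1 or 2 or wild-type array 1 or 3 (adjusted p = 0.0505 to 0.0791) for the former and on leaving out any single array (adjusted p = 0.054 to 0.128) for the latter. Among regulators of spermatocytes 1 of 11 fell, bol, a translation regulator of meiosis, at -0.46 (adjusted p = 0.0174), lost on leaving out mutant array 1 or 3 or wild-type array 2 (adjusted p = 0.0516 to 0.0584). A single fall in so few genes says nothing about these regulators as a group.

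Of 39 accessory gland and seminal fluid genes 7 fell and 1 rose, with a median of -0.23, and 3 of the falls stayed called in every fit with an array left out. Of the 39 genes 35 were male-biased, a class in which 22.1% of probe sets fell, so the count shows nothing particular to this family. Gld, glucose dehydrogenase, which males make in the ejaculatory duct, was the largest fall of the male-biased class. It read 276, 217 and 201 in mutant males and 547, 695 and 940.2 in wild-type males, with wild-type replicate 3 highest and no overlap, at -1.58 (SE 0.19, adjusted p = 0.0018). The seminal fluid protein genes Sfp24Bb and Sfp26Ad followed. Sfp24Bb read 2978, 2522 and 2624 in mutant males and 5913, 5424 and 5007 in wild-type males, near a 2-fold fall at -1.01 (SE 0.11, adjusted p = 0.00102), and Sfp26Ad differed by -0.86 (SE 0.11, adjusted p = 0.00205). Acp98AB went the other way, reading 5688, 6584 and 4615 in mutant males and 3809, 3519 and 3122 in wild-type males, a rise of 0.68 (SE 0.14, adjusted p = 0.0182). Its call was lost on leaving out mutant array 1 or wild-type array 2 or 3 (adjusted p = 0.054 to 0.0729). Other male-biased genes with large changes were CG31872, a predicted lipase that read 861, 896 and 632 in mutant males and 376, 311 and 364 in wild-type males and rose by 1.15 (SE 0.14, adjusted p = 0.00217), and CG18301, of the same enzyme class, which read 306, 261 and 178 in mutant males and 798, 557 and 497 in wild-type males. Its mutant values lay below all wild-type values, at -1.28 (SE 0.21, adjusted p = 0.00774). The uncharacterised CG15578 and CG5614 fell more than 2-fold, with differences of -1.33 (SE 0.14, adjusted p = 8.00e-04) and -1.32 (SE 0.11, adjusted p = 1.96e-04), and CG12729 rose by 1.31 (SE 0.23, adjusted p = 0.00981).

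Among female-biased transcripts, the 2 wild-type arrays with high eggshell and yolk sums set the values of those genes. Of 253 tested, 13 fell (5.14%), 2 rose and the median was -0.06. Of the 11 eggshell and yolk markers tested, 10 would have missed the filter on mean signal on the other 4 male arrays and entered only through wild-type replicates 1 and 2, so they had to differ and their count supports nothing. The same held for dhd, below, whose mean on those 4 arrays was also under the lowest mean signal tested. Of 18 genes for chorion, vitelline membrane and yolk, 11 were tested and 5 fell. The yolk protein gene Yp1 read 17.9, 1.5 and 1.4 in mutant males and 554, 266 and 29.8 in wild-type males, and the values stepped down from wild-type replicate 1 to wild-type replicate 3, the latter still above the mutants. With wild-type replicate 3 alone as the control its difference was -1.27 (adjusted p = 0.31). Against all 3 controls it was -3.44 (SE 0.79, adjusted p = 0.0258), a call lost on leaving out mutant array 2 or 3 or wild-type array 2 (adjusted p = 0.0701 to 0.0868). dhd, an ovarian thioredoxin needed at fertilisation, read 31.8, 12 and 5.9 in mutant males and 597, 337 and 53.5 in wild-type males, the same order over arrays, with -3.20 (SE 0.69, adjusted p = 0.0201) against all 3 controls, lost on leaving out mutant array 2 or 3 or wild-type array 2 (adjusted p = 0.0555 to 0.0764), and -1.31 (adjusted p = 0.225) against wild-type replicate 3 alone. The whole list gave 2 falls with mutant array 3 left out and 11 with wild-type array 3 left out, and none against wild-type replicate 3 alone. Over the female-biased class that control gave 1 fall, no rise and a median of 0.04. The part of female RNA in these 2 wild-type samples was not tested further.

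Outside the eggshell, yolk and oogenesis lists, 177 female-biased genes on no list had a median of -0.01, with 6 lower and 2 higher. The X-linked topoisomerase gene Top1 read 59, 71 and 68.3 in mutant males and 106, 154 and 118 in wild-type males, a pattern unlike that of the yolk genes, since wild-type replicates 1 and 3 were close. It fell by 0.81 (SE 0.16, adjusted p = 0.0157), lost on leaving out mutant array 1 (adjusted p = 0.0668). The 2 rises were Nop10, of the small ribonucleoproteins that modify ribosomal RNA, and CG1620. Nop10 read 106, 112 and 128 in mutant males and 65.5, 64.2 and 75.1 in wild-type males, at 0.67 (SE 0.14, adjusted p = 0.0184). CG1620 differed by 0.58 (SE 0.15, adjusted p = 0.0404). Both calls depended on single arrays: Nop10 lost its call on leaving out mutant array 1 or 3 or wild-type array 2 (adjusted p = 0.0532 to 0.081), and CG1620 on leaving out mutant array 1, 2 or 3 or wild-type array 2 or 3 (adjusted p = 0.0687 to 0.166). Of 19 tested regulators of oogenesis none was called by its brightest probe set, and over all 21 tested probe sets of these genes 1 was lower.

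Transcripts without sex bias, 8408 probe sets, held 549 rises (6.53%) and 249 falls (2.96%), so 98.7% of all rises lay here. Their median was 0.03. With each array centred on these probe sets the counts were 401 rises and 333 falls. Omitting mutant array 1 left 222 and 98, mutant array 3 left 272 and 103 and wild-type array 2 left 315 and 122, and 196 rises and 73 falls stayed called whichever array was left out. Omitting wild-type array 3 left 158 falls.

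**Figure D3:**
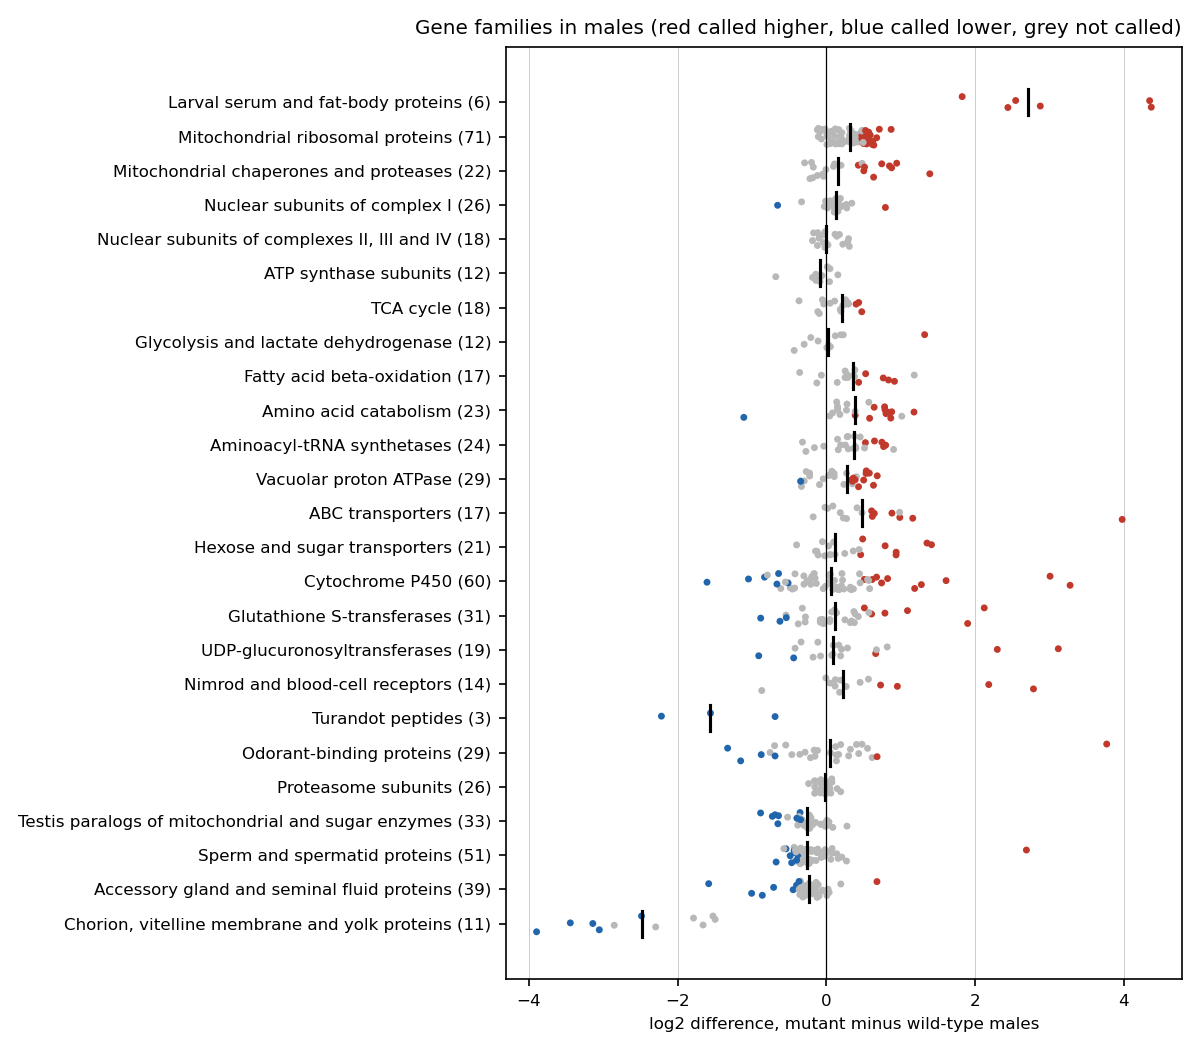
Log2 difference between mutant and wild-type males (horizontal axis) for each tested gene (point) of 25 families (vertical axis, number tested in brackets), coloured by call, with the family median as a bar. Larval serum and fat-body proteins lie furthest right (median 2.71) and the yolk and eggshell genes furthest left (median -2.49).

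Mitochondrial ribosomal proteins, chaperones and proteases rose in part, while 1 rise and 1 fall were called among nuclear subunits of the respiratory chain. Of 71 mitochondrial ribosomal proteins, the partners of S12, 18 rose and none fell, the median was 0.32 and 63 lay above 0, against a share of higher calls of 5.66% over all genes. The shifts were small, and the number of rises ranged from 5 without mutant replicate 1 to 17, with 4 called in every fit. mRpS28, of the small subunit to which S12 belongs, read 199.8, 210.0 and 186 in mutant males and 109, 83.4 and 121 in wild-type males. The groups were separate by a wide margin, at 0.87 (SE 0.14, adjusted p = 0.00744). mRpS6 read 187, 181 and 201 in mutant males and 133, 92.8 and 121 in wild-type males, and its rise of 0.68 (SE 0.14, adjusted p = 0.0179) was lost on leaving out mutant array 1 or 3 (adjusted p = 0.0661 to 0.069). mRpL3 of the large subunit differed by 0.71 (adjusted p = 0.0453), a call that was lost on leaving out mutant array 1, 2 or 3 or wild-type array 1 or 3 (adjusted p = 0.0692 to 0.142). None of the 71 was in a sex-biased class.

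Mitochondrial chaperones and proteases, which fold imported proteins and remove damaged ones, gave 9 rises among 22 genes and no fall, 6 of them called in every fit with an array left out. CG11267, annotated as the mitochondrial co-chaperonin Hsp10, read 621, 650.1 and 853 in mutant males and 242, 278 and 262 in wild-type males. Every mutant value was more than 2-fold above the wild-type mean, with 1.39 (SE 0.13, adjusted p = 4.13e-04). Hsc70-5, the mitochondrial Hsp70 that pulls proteins through the inner membrane, read 1227, 1195 and 1511 in mutant males and 557, 742 and 731 in wild-type males, at 0.95 (SE 0.14, adjusted p = 0.00454). Afg3l2, a subunit of the inner-membrane AAA protease, read 1093, 1071 and 1060.5 in mutant males and 595, 580.2 and 564 in wild-type males, with replicates closely spaced on both sides, at 0.88 (SE 0.09, adjusted p = 5.07e-04). Its partner Spg7, which lies 23 genes from tko on the X, differed by 0.51 (SE 0.11, adjusted p = 0.0194), lost on leaving out mutant array 1 or 3 or wild-type array 2 (adjusted p = 0.0617 to 0.0897). In females the differences of CG11267 and Hsc70-5 were 0.33 (SE 0.13, adjusted p = 0.26) and 0.09 (SE 0.13, adjusted p = 0.837), and the tests of a difference between the sexes gave 1.06 (SE 0.19, adjusted p = 0.0618) and 0.86 (SE 0.18, adjusted p = 0.104), so neither passed.

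Of 26 nuclear subunits of respiratory complex I, 1 rose and 1 fell around a median of 0.13, and 22 of the 26 differences lay above 0. Over all genes 5.66% rose and 5.80% fell, so these counts of calls say nothing about the family. ND-13B read 1187, 1162 and 1333 in mutant males and 565, 665 and 918 in wild-type males, at 0.79 (SE 0.16, adjusted p = 0.016), and ND-B12 107, 102 and 67.8 in mutant males and 131, 153 and 166 in wild-type males, at -0.66 (SE 0.17, adjusted p = 0.0423). The first call was lost on leaving out mutant array 1 or 3 or wild-type array 2 (adjusted p = 0.0501 to 0.0584) and the second on leaving out mutant array 1, 2 or 3 or wild-type array 2 or 3 (adjusted p = 0.0613 to 0.11). None of 18 subunits of complexes II, III and IV and none of 12 subunits of ATP synthase was called, with medians of -0.01 and -0.09. The brightest of them show how closely the groups lay: COX4 of complex IV read 8506, 9478 and 7428 in mutant males and 7708, 8410.2 and 6892 in wild-type males, and blw, the alpha subunit of ATP synthase, 9583, 10747 and 7745 in mutant males and 9626, 12012 and 8333 in wild-type males. Both groups overlapped, with differences of 0.14 (adjusted p = 0.511) and -0.09 (adjusted p = 0.76). Among all 14 tested probe sets of the ATP synthase genes 1, not the brightest of its gene, was called higher.

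RFeSP, the Rieske iron-sulphur protein of complex III, was an exception in one probe set and not in another. Its dimmer probe set read 14.6, 28.3 and 17.3 in mutant males and 414, 566 and 666 in wild-type males, the largest fall among all named genes at -4.14 (SE 0.21, adjusted p = 1.43e-05). The brighter probe set of the same gene read 3407, 3742 and 3104 in mutant males and 3523, 3677 and 3761 in wild-type males, with overlapping groups and -0.10 (SE 0.10, adjusted p = 0.569). Both patterns recurred in females, at -4.35 (SE 0.21, adjusted p = 5.90e-07) and 0.00 (SE 0.13, adjusted p = 0.999). With the probe sets apart, the gene's total RNA cannot be said to have fallen. The same split occurred elsewhere: for CG5953, of unknown function, the bright probe set read 7369.5, 7444 and 6134 in mutant males and 523, 508 and 539 in wild-type males and rose by 3.70 (SE 0.10, adjusted p = 2.00e-07) while the dim one differed by 0.49 (adjusted p = 0.0527), and for teq, which encodes a secreted serine protease, 2 probe sets moved in opposite directions at -0.98 (SE 0.16, adjusted p = 0.00693) and 2.45 (SE 0.25, adjusted p = 5.96e-04). Of 380 genes with several tested probe sets 64 had a call, 14 had all probe sets called the same way, and in 16 of the 64 the signs differed.

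In central carbon metabolism lactate dehydrogenase rose and Pepck2 fell. The counts of this paragraph stand beside 5.66% of all genes higher and 5.80% lower. Of 18 TCA cycle genes 3 rose, Ogdh by 0.48 (adjusted p = 0.026), Fum1 by 0.43 (adjusted p = 0.0385) and ScsbetaG by 0.40 (adjusted p = 0.0482), and none of these calls held in every fit: Ogdh lost it on leaving out mutant array 1, 2 or 3 or wild-type array 1 or 3 (adjusted p = 0.0567 to 0.0955), Fum1 on leaving out mutant array 1, 2 or 3 or wild-type array 1 or 2 (adjusted p = 0.055 to 0.105) and ScsbetaG on leaving out any single array (adjusted p = 0.0561 to 0.151). With arrays centred on the probe sets without sex bias none of the 18 was called. Over all 20 tested probe sets of the TCA cycle genes, uncentred, 3 were higher and 1 lower. Among 12 genes of glycolysis the 1 rise was Ldh, lactate dehydrogenase, which regenerates NAD+ without respiration. It read 724, 586 and 914 in mutant males and 231, 321 and 311 in wild-type males, with a wide gap between the groups and a difference of 1.32 (SE 0.17, adjusted p = 0.0029). Pepck2, a phosphoenolpyruvate carboxykinase paralog, read 89.1, 95.1 and 55.2 in mutant males and 311, 269 and 307 in wild-type males and fell by 1.78 (SE 0.18, adjusted p = 5.52e-04). Of 23 genes of amino acid catabolism 10 rose and 1 fell, 6 rises and the fall staying in every fit. BckdhB, of the complex that commits branched-chain amino acids to breakdown, read 1427, 1494 and 1583 in mutant males and 806, 801 and 824 in wild-type males, at 0.88 (SE 0.09, adjusted p = 5.96e-04). Hpd of tyrosine breakdown read 1774, 1901 and 2743 in mutant males and 669, 1054 and 1105 in wild-type males, at 1.18 (SE 0.21, adjusted p = 0.0103). The fall was LKRSDH, the entry enzyme of lysine breakdown, at -1.11 (SE 0.19, adjusted p = 0.00819). The list of fatty acid beta-oxidation had 5 rises in 17 genes, with yip2, a thiolase, at 0.84 (SE 0.13, adjusted p = 0.00545). Counted among the 5 is CG9547, at 0.92 (SE 0.16, adjusted p = 0.00876). It is annotated as a glutaryl-CoA dehydrogenase, an enzyme of amino acid breakdown rather than of beta-oxidation itself. The study reported the enzyme of Hpd and yip2 as higher on the same arrays. The counts for amino acid catabolism and beta-oxidation are therefore not independent evidence of direction. Of 10 genes of fatty acid synthesis 2 fell, FASN3 at -0.72 (SE 0.13, adjusted p = 0.0108) and ACC, the carboxylase that makes malonyl-CoA, at -0.50 (adjusted p = 0.0373), lost on leaving out mutant array 1 or 3 or wild-type array 1, 2 or 3 (adjusted p = 0.0521 to 0.1). FASN1, the main fatty acid synthase gene, differed by -0.15 (adjusted p = 0.5) and was not called.

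Carriers and pumps gave counts that moved with the scaling, where 5.66% of all genes rose and 5.80% fell. Of 22 mitochondrial carriers 7 rose and 3 fell, but 3 rose and 3 fell with arrays centred on the probe sets without sex bias. The falls were the male-biased GC2, a glutamate carrier, Ant2, an adenine nucleotide translocase, and Dic3, a dicarboxylate carrier. GC2 read 209, 189 and 186 in mutant males and 383, 297 and 281 in wild-type males, at -0.67 (SE 0.13, adjusted p = 0.0138). Ant2 differed by -0.45 (adjusted p = 0.0342), lost on leaving out mutant array 1 or 3 or wild-type array 1, 2 or 3 (adjusted p = 0.0723 to 0.0872), and Dic3 by -0.44 (adjusted p = 0.0497), lost on leaving out any single array (adjusted p = 0.0711 to 0.147). With 1 array left out 1 to 5 carriers rose, fewest without mutant replicate 3, and 1 rise stayed called in every fit. Of 29 subunits of the vacuolar proton ATPase, which acidifies organelles and energises gut and tubule membranes, 12 rose and 1 fell, or 5 and 1 with that centring. Vha44 read 1601, 1469.7 and 1639.7 in mutant males and 939, 987 and 990.3 in wild-type males, at 0.68 (SE 0.09, adjusted p = 0.00309), and Vha14-1 differed by 0.58 (SE 0.10, adjusted p = 0.00968). The 1 fall was the male-biased Vha68-3, at -0.35 (adjusted p = 0.048), lost on leaving out any single array (adjusted p = 0.0682 to 0.136). The number of V-ATPase rises was 4 to 7 with any 1 array left out, 4 of them the same in every fit.

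Of 21 sugar transporters on this list 7 rose and none fell. With arrays centred on the probe sets without sex bias 5 rose and 1 fell. The list leaves out 2 sugar transporters placed with the testis copies above, Glut3 at -0.89 and CG17637 at -0.73, which both fell. Over all genes, 5.66% rose and 5.80% fell. Of 27 transporters of phosphate and organic ions 9 rose and 2 fell. With 1 array left out the rises numbered 3 to 5 for sugars, fewest without mutant replicate 2, and 4 to 8 for ions, fewest without mutant replicate 1, of which 3 and 4 stayed called in every fit. Some members are on these lists because the study singled them out on the same arrays, so the counts are not independent evidence of direction. CG3285, a predicted sugar transporter, read 488, 453 and 768 in mutant males and 221, 210.4 and 173 in wild-type males, a rise of 1.41 (SE 0.19, adjusted p = 0.00305). The neighbouring organic-ion transporter genes CG17751 and CG17752 rose alike, CG17751 reading 232, 233 and 407 in mutant males and 89.2, 87.8 and 94.4 in wild-type males at 1.52 (SE 0.20, adjusted p = 0.00274) and CG17752 differing by 1.30 (SE 0.18, adjusted p = 0.00323). MFS1 fell by 1.61 (adjusted p = 0.0283), lost on leaving out mutant array 2 or 3 or wild-type array 3 (adjusted p = 0.074 to 0.0935). At a mutant mean of 17.7, MFS1 passed the filter on mean signal only through the wild-type arrays. Of 15 amino acid transporters 3 rose, none in every fit, and 2 fell. The 17 ABC transporters had the highest family median of these groups, 0.48, with 7 rises and no fall. The differences on this list reached 3.98 log2 units. CG31793, a predicted lipid transporter of this superfamily, read 202, 159.7 and 256 in mutant males and 75, 81.9 and 96.1 in wild-type males, and rose by 1.16 (SE 0.17, adjusted p = 0.00494). In fits with an array left out the ABC list kept 2 to 6 rises, fewest without mutant replicate 3.

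Detoxification families split, with large changes in both directions around medians close to 0. Their counts stand beside shares of 5.66% higher and 5.80% lower over all genes. Of 60 cytochrome P450 genes 10 rose and 6 fell, 8 and 3 of them in every fit with an array left out. Cyp6a23 read 983, 1014 and 1759 in mutant males and 142, 102 and 101 in wild-type males, at 3.28 (SE 0.22, adjusted p = 7.07e-05), and its cluster neighbours on 2R differed in sign: Cyp6a8 rose by 1.61 (SE 0.20, adjusted p = 0.00217) and Cyp6a17 fell by 1.05 (SE 0.18, adjusted p = 0.00826). Cyp4e3 read 458, 524 and 1227 in mutant males and 34.8, 112 and 92.2 in wild-type males, with mutant replicate 3 more than 2-fold above the other mutants, at 3.01 (SE 0.41, adjusted p = 0.0033). The male-biased Cyp312a1 fell by 0.83 (SE 0.16, adjusted p = 0.0127). Of 31 glutathione S-transferases 6 rose and 3 fell, 3 rises and 1 fall in every fit. GstE1 read 1153, 972 and 2046 in mutant males and 270.3, 285 and 329 in wild-type males, at 2.12 (SE 0.23, adjusted p = 9.89e-04), and GstE5 of the same cluster 78.6, 62.2 and 73.7 in mutant males and 129.9, 125 and 173 in wild-type males, at -0.88 (SE 0.16, adjusted p = 0.0105). Of 19 UDP-glucuronosyltransferases, which conjugate sugars to hydrophobic compounds, 3 rose and 2 fell. Ugt37A3 read 944, 443 and 2059 in mutant males and 65.8, 93.1 and 157 in wild-type males, at 3.12 (SE 0.47, adjusted p = 0.00512), Ugt35C1 rose by 2.30 (SE 0.17, adjusted p = 1.10e-04) and Ugt37B1 fell by 0.91 (SE 0.18, adjusted p = 0.0129).

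**Figure D4:**
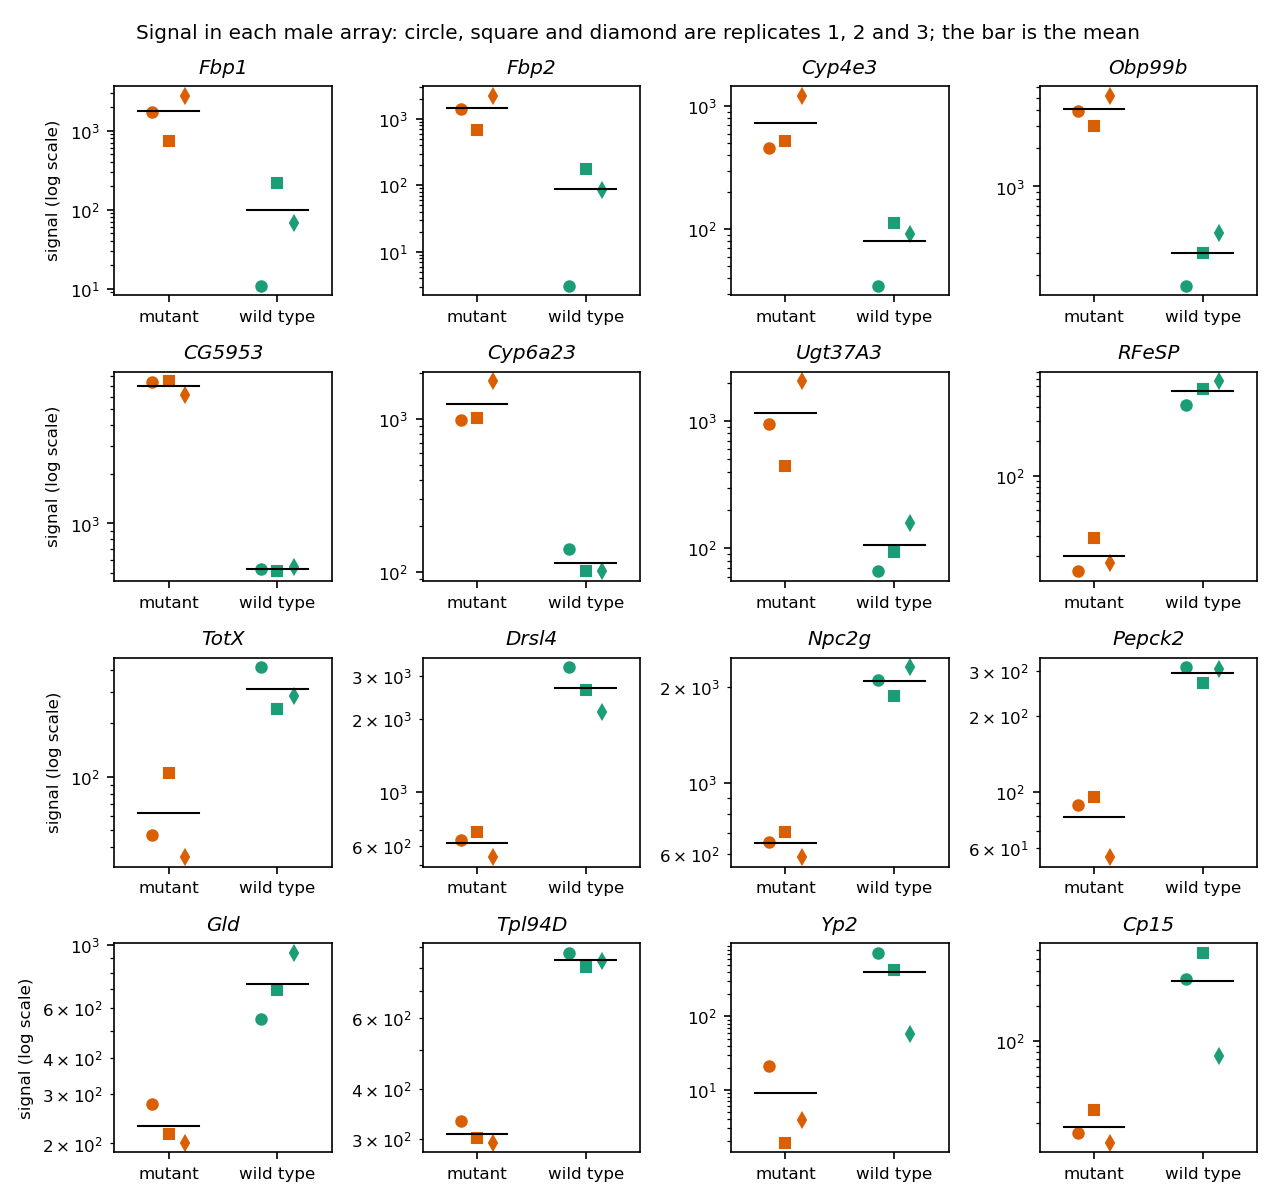
Signal (vertical axis, log scale, a range of its own in each panel) on each male array for 16 genes with a call, with replicates 1, 2 and 3 as circle, square and diamond, mutants in orange and wild type in green, and the mean signal as a bar. The groups do not overlap in any panel, Fbp1 and Fbp2 have a wide spread among wild-type arrays (10.9 to 219 for Fbp1), and for the female-biased Yp2 and Cp15 wild-type replicate 3 lies nearest the mutants. RFeSP is shown by its dimmer probe set.

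The largest family-wide change was that of larval serum and fat-body proteins, which the larval fat body stores for metamorphosis and which persist for a short time in new adults. All 6 were tested and all 6 rose, with a median of 2.71, and 5 of them stayed called whichever array was left out. The study singled out members of this list on the same arrays, so the count is not independent evidence of direction. Fbp1, the receptor for the uptake of storage proteins, read 1718, 738 and 2774 in mutant males and 10.9, 219 and 67.1 in wild-type males. The groups were separate, but mutant replicate 2 was the lowest mutant and wild-type replicate 2 the highest control, at 4.37 (SE 0.73, adjusted p = 0.00767). Lsp2 read 2836, 1932 and 4223 in mutant males and 761, 857 and 772 in wild-type males, with evenly low controls, at 1.83 (SE 0.23, adjusted p = 0.00217). Lsp1gamma read 1199.8, 733 and 2159 in mutant males and 94.7, 285 and 300.3 in wild-type males, at 2.55 (SE 0.45, adjusted p = 0.00944), and Lsp1beta differed by 2.88 (SE 0.63, adjusted p = 0.0208), lost on leaving out mutant array 1 or 3 (adjusted p = 0.0584 to 0.0788). Against wild-type replicate 3 alone 2 of the 6 were called. The summed signal of the list was 161%, 94.1% and 263% of the male mean in mutants and 17.4%, 36.2% and 28.8% in wild type, so the mutant arrays themselves differed nearly 3-fold, with replicate 3 highest. The same order of mutant arrays, 3 above 1 above 2, held for Fbp2, Ugt37A3, NimC4 and dyw. NimC4, a phagocytosis receptor for dying cells, read 166, 89.8 and 266 in mutant males and 5.7, 10.3 and 28.6 in wild-type males, at 2.79 (SE 0.39, adjusted p = 0.0039). dyw, of the takeout family of hydrophobic ligand carriers, read 108, 44 and 266 in mutant males and 1.9, 26.5 and 5.1 in wild-type males, at 2.58 (SE 0.56, adjusted p = 0.0205), lost on leaving out mutant array 1 or 3 or wild-type array 3 (adjusted p = 0.0561 to 0.0772). NimC4 and dyw, at wild-type means of 14.9 and 11.2, passed the filter on mean signal only through the mutant arrays. Fbp2 rose by 4.35 (SE 0.79, adjusted p = 0.0105). The age of the flies is given only as 1 day, and the part of developmental timing was not tested.

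**Figure D5:**
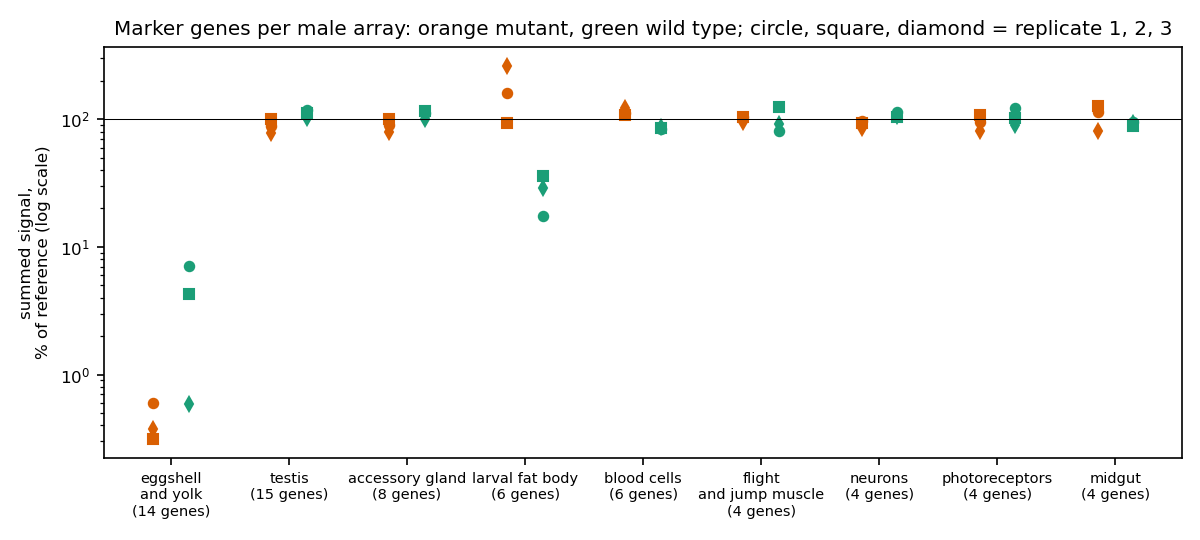
Summed signal of each marker list as a percent of its reference (vertical axis, log scale) on the 6 male arrays (points, by genotype and replicate), the female mean for eggshell and yolk and the mean of the 6 male arrays for the others. Larval fat body markers lie at 94.1% to 263% in mutants and 17.4% to 36.2% in wild type, and the eggshell and yolk sum is highest in wild-type replicates 1 and 2.

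Stress and immune families gave calls in both directions, where 5.66% of all genes rose and 5.80% fell. Family counts near those shares say nothing about a family. Of 9 heat-shock genes Hsp23, a small chaperone, read 920.3, 766 and 1468 in mutant males and 268, 336 and 325 in wild-type males and rose by 1.68 (SE 0.21, adjusted p = 0.00211), while the female-biased Hsp26 fell by 0.70 (SE 0.18, adjusted p = 0.0361), lost on leaving out mutant array 1 or 3 or wild-type array 1, 2 or 3 (adjusted p = 0.0527 to 0.12). Of 20 antioxidant genes 3 rose and 2 fell, or 2 and 4 with arrays centred on the probe sets without sex bias. Gtpx, a glutathione peroxidase-like enzyme, read 2238, 2429 and 2831 in mutant males and 1356, 1491 and 1473 in wild-type males, at 0.78 (SE 0.11, adjusted p = 0.00377), and Prx2, a cytosolic peroxiredoxin, 2802, 2875 and 3133 in mutant males and 1799, 1994 and 1905 in wild-type males, at 0.63 (SE 0.10, adjusted p = 0.00541). Of the 2 falls one was dhd, described above, which passed the filter on mean signal only through wild-type replicates 1 and 2. The other was Prx6a, at -0.62 (adjusted p = 0.0396), lost on leaving out mutant array 1 or 2 or wild-type array 1, 2 or 3 (adjusted p = 0.0553 to 0.138). Turandot peptides, which are secreted under stress, were 3 of 7 tested, and all 3 fell. TotX read 47, 105 and 35 in mutant males and 417, 241 and 285 in wild-type males, at -2.22 (SE 0.31, adjusted p = 0.0039), TotA differed by -0.69 (SE 0.15, adjusted p = 0.0186), lost on leaving out mutant array 2 or 3 (adjusted p = 0.0523 to 0.0629), and TotC by -1.56 (SE 0.33, adjusted p = 0.0181), lost on leaving out wild-type array 2 (adjusted p = 0.057). Of 8 antimicrobial peptides 1 fell, the drosomycin-like Drsl4, which read 634, 685 and 539.5 in mutant males and 3264, 2633 and 2132 in wild-type males, at -2.08 (SE 0.16, adjusted p = 1.10e-04), while Drs itself, at 1793, 2106 and 1542 in mutant males and 818, 4139.8 and 981 in wild-type males, had 1 high wild-type array and differed by 0.27 (adjusted p = 0.762). Of 10 recognition proteins for bacterial cell walls 2 rose, CG12780 by 1.48 (adjusted p = 2.86e-04) and PGRP-SD by 0.82 (adjusted p = 0.0167), the latter lost on leaving out mutant array 1 (adjusted p = 0.0674). Of 14 Nimrod and blood-cell receptors 4 rose and none fell, among them NimC1 with 0.95 (adjusted p = 0.00401). The risers NimC4 and NimC2, at wild-type means of 14.9 and 13.7, passed the filter on mean signal only through the mutant arrays. The filter thus favoured their direction. Blood-cell markers summed to 108% to 122% of the male mean in mutants and 84.5% to 87.6% in wild type, with 1 of 6 called.

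Digestive and chemosensory genes gave further single large changes. Over all genes 5.66% rose and 5.80% fell, and a family count near those shares says nothing about the family. Of 26 gut serine proteases 2 rose, both in every fit: epsilonTry, a trypsin, read 2762, 3926 and 2024 in mutant males and 1140.5, 876 and 1202 in wild-type males, at 1.39 (SE 0.22, adjusted p = 0.00602), and the chymotrypsin-like Jon65Aii differed by 0.71 (SE 0.12, adjusted p = 0.00765). Of 19 lipases 4 rose and 3 fell, and the 5 male-biased members included 2 of the falls. The risers CG17192 and CG6271, at wild-type means of 19.3 and 41.1, passed the filter on mean signal only through the mutant arrays. The faller CG11600, at a mutant mean of 41.4, passed only through the wild-type arrays. The filter thus favoured the direction of these calls. Here too members had been singled out on these arrays. CG5966 read 478, 671 and 743 in mutant males and 107, 146 and 94.5 in wild-type males, at 2.33 (SE 0.19, adjusted p = 1.75e-04), and CG17192 rose by 2.80 (SE 0.39, adjusted p = 0.00366). CG3819, annotated as an endonuclease, read 879, 874 and 524 in mutant males and 114, 124 and 165 in wild-type males, at 2.38 (SE 0.21, adjusted p = 2.39e-04). Of 29 odorant-binding proteins 2 rose and 4 fell. The fallers Obp8a and Obp56i, at mutant means of 28.5 and 29.3, passed the filter only through the wild-type arrays. Obp99b read 3934, 3000.2 and 5185 in mutant males and 166, 298 and 429 in wild-type males, 13.6-fold higher in mutants, at 3.77 (SE 0.30, adjusted p = 1.58e-04), and Obp99c of the same cluster rose by 0.68 (SE 0.11, adjusted p = 0.00656). Obp56d read 903, 711 and 554 in mutant males and 2669, 1758 and 1238 in wild-type males, at -1.33 (SE 0.26, adjusted p = 0.0132), lost on leaving out mutant array 3 (adjusted p = 0.051). Of 35 cuticle proteins 1 rose and 1 fell. Cpr72Ec read 89.4, 201 and 202 in mutant males and 44.2, 54.7 and 52.3 in wild-type males, at 1.43 (SE 0.27, adjusted p = 0.012), lost on leaving out mutant array 3 (adjusted p = 0.0524), and the fall was Cpr51A, at -0.96 (SE 0.16, adjusted p = 0.00826). ETH, the hormone that triggers the shedding of the cuticle, read 21.1, 1.6 and 28.7 in mutant males and 75.3, 69.4 and 71.1 in wild-type males, at -1.69 (SE 0.38, adjusted p = 0.0244), lost on leaving out wild-type array 2 or 3 (adjusted p = 0.0602 to 0.0686). With a mutant mean of 17.1, ETH too passed the filter only through the wild-type arrays. CG9519, of an oxidoreductase cluster on the X, read 45.3, 51.3 and 57.5 in mutant males and 192, 174 and 212 in wild-type males, at -1.70 (SE 0.14, adjusted p = 1.79e-04).

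In cytosolic translation the 41 ribosomal proteins gave 3 rises and 1 fall, where 5.66% of all genes rose and 5.80% fell. RpL37-1, one of a pair of gene copies for this protein, read 3428, 3252 and 3381 in mutant males and 1316, 1275 and 1175 in wild-type males, far from any overlap, at 1.41 (SE 0.09, adjusted p = 7.07e-05). RpL29 differed by 0.36 (adjusted p = 0.0337), lost on leaving out any single array (adjusted p = 0.0725 to 0.103), and the male-biased RpS19b by -0.46 (adjusted p = 0.0434), lost on leaving out mutant array 1, 2 or 3 or wild-type array 1 or 2 (adjusted p = 0.061 to 0.155). Of 24 aminoacyl-tRNA synthetases 5 rose and none fell around a median of 0.37, 2 of them in every fit. PheRS-m, which charges phenylalanine tRNA inside mitochondria, read 632, 556 and 585 in mutant males and 311, 343 and 351 in wild-type males, at 0.80 (SE 0.10, adjusted p = 0.00217), and AspRS read 755, 700.5 and 1025 in mutant males and 447, 514 and 463 in wild-type males, at 0.77 (SE 0.14, adjusted p = 0.0112). The repair photolyase phr, which reverses ultraviolet damage in light, read 93.3, 85.4 and 100.2 in mutant males and 353, 279.7 and 328 in wild-type males, a difference of -1.66 (SE 0.12, adjusted p = 1.10e-04), and the potassium channel slo fell by 0.64 (SE 0.12, adjusted p = 0.0111). No sex determination or photoreceptor gene of the lists was called (13 and 15 tested).

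Around tko itself, 33 tested genes lay within 25 genes on either side, and 4 of them rose (12.1%) and none fell, where 5.66% of all genes and 5.83% of those on the X rose. They were eIF3g1, sgg, dyw and Spg7 at 13, 18, 22 and 23 genes from tko, all on the side of higher coordinates. Of these, dyw passed the filter on mean signal only through the mutant arrays. sgg, the glycogen synthase kinase of Wnt and clock signalling, read 138, 112 and 99.6 in mutant males and 49.4, 61.4 and 46.7 in wild-type males, at 1.00 (SE 0.17, adjusted p = 0.0084), and eIF3g1 rose by 0.38 (SE 0.09, adjusted p = 0.0355), lost on leaving out mutant array 1, 2 or 3 or wild-type array 2 or 3 (adjusted p = 0.0555 to 0.123). Within 50 genes 8 of 64 rose and 2 fell, and within 100 genes 12 of 118 rose and 5 fell. DNA that was carried along with tko25t through backcrossing and the mutation itself cannot be told apart here.

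The male response was set against the female one with an interaction term over all 12 arrays. It differed past the threshold in 5 of 10045 probe sets (0.0498%), and 1341 had an unadjusted p under 0.05. Among genes named above, CG5953 had 3.74 (SE 0.20, adjusted p = 1.01e-06) in females and Drsl4 -2.08 (SE 0.14, adjusted p = 9.79e-06), within 1 SE of the male values. The male-biased Tpl94D read 34.5 ± 13.4 in mutant females and 48.5 ± 6.03 in wild-type females (SD, n = 3), with a female difference of -0.42 (SE 0.18, adjusted p = 0.305), and Gld read 30.3 ± 4.0 in mutant females and 37.1 ± 6.27 in wild-type females, with -0.21 (SE 0.19, adjusted p = 0.685). These female signals were low. The interaction tests gave -0.98 (SE 0.25, adjusted p = 0.156) for Tpl94D and -1.37 (SE 0.27, adjusted p = 0.0862) for Gld, so neither passed. The fat-body gene Fbp1 had 3.64 (SE 1.06, adjusted p = 0.0978) in females, not called, and the difference between the sexes was 0.73 (SE 1.49, adjusted p = 0.88).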

How the data were processed

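RNA of whole male and female flies of 2 genotypes was measured on 12 Affymetrix Drosophila Genome 2.0 arrays, and the 6 male arrays were compared. The deposited intensities are MAS5 signals that the authors made with the GCOS software and scaled array by array, in linear units. They were used without further scaling, as log2(signal + 11.6). Controls were left out, and the upper 53% of probe sets by mean signal over the male arrays were tested. The study's filter on detection calls was not used here.

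Genotypes were compared with limma 3.58.1 in R 4.3.3 (a trend of variance on signal, 2 group means, Benjamini-Hochberg adjustment), and the difference between the sexes with an interaction term over 12 arrays. Arrays hold independent groups of flies, but male and female groups may share crosses, which that fit does not model. The number of arrays limits the precision, and an exact permutation test of 3 arrays against 3 cannot give p under 0.1. The scripts were tested on simulated arrays. Tables and figures were made with Python 3.11.15 (pandas 2.3.3, numpy 2.4.6, scipy 1.17.1, matplotlib 3.10.9).

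Gene names come from the array annotation, in which 13646 probe sets have 1 symbol, 402 several and 4721 none, and 13543 matched a RefSeq entry (Release 6 plus ISO1 MT) by Entrez identifier. A further 42 probe sets were named from the study's supplementary lists, of which only the names were used. The genes named are, in each sex-bias class, 8 called genes in each direction, those of greatest change whose groups do not overlap, in each list the 3 called members with the largest change in each direction (any member of lists of 10 or fewer, the 2 brightest where none was called), tko and called genes within 25 genes of it. Not every gene the rule allows is described. The second probe sets of RFeSP, CG5953 and teq were added after their values were seen. The comparison, the gene lists and the classes were chosen with earlier results of these data known. Alternatives were other offsets, filters and normalizations, no trend of variance, a fit over 12 arrays, the SAM test of the study's methods on linear signals, the replicate number as a block, and each array left out in turn.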

Additional observations from a re-analysis of the deposited data

Results flagged for a closer look

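In 5 probe sets the male difference between genotypes was unlike the female one past the threshold of the interaction test over all 12 arrays, and each of the 5 was higher in mutant males. Sdic3 had the largest difference between the sexes, 2.46 (SE 0.18, adjusted p = 1.01e-04), in log2 units of the male minus the female effect. Its signal was 40.6 ± 3.48 in mutant females and 32.9 ± 4.32 in wild-type females (SD, n = 3), an effect of 0.23 (SE 0.13, adjusted p = 0.452) beside 2.69 in males. RpL37-1 followed the same form, with a difference of 1.39 (SE 0.14, adjusted p = 0.00162) and a female effect of 0.02 (SE 0.10, adjusted p = 0.959). It read 4748 ± 549 in mutant females and 4662 ± 198 in wild-type females, so the wild-type males were the low group of the 4.

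The other 3 had effects of opposite sign in the sexes. For Rala, a Ras-like GTPase on the X named through the study's own probe list, the difference was 1.55 (SE 0.18, adjusted p = 0.00521). Its signals were 348, 318 and 354 in mutant males and 201, 208 and 229 in wild-type males, a rise of 0.65 (SE 0.10, adjusted p = 0.00656), and the female effect was -0.90 (SE 0.13, adjusted p = 0.00258). For bcn92, on the X, the difference was 1.79 (SE 0.27, adjusted p = 0.0486), from a male effect of 1.07 (SE 0.17, adjusted p = 0.00693) and a female effect of -0.72 (SE 0.19, adjusted p = 0.0695) that was not called. For a probe set that has no gene name here it was 1.67 (SE 0.21, adjusted p = 0.00818), from 0.77 (SE 0.12, adjusted p = 0.00554) in males and -0.90 (SE 0.15, adjusted p = 0.00643) in females. All 5 male effects stayed called whichever male array was left out of the male fit.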

How the results depend on the processing

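No called gene named in the text changed direction under any alternative. Of the 164 called genes that the rule names, those that stayed called were 161 with an offset of 2.9, 163 with an offset of 46.4, 125 with no filter on signal, 150 of the 150 tested with the stricter filter, 154 with quantile normalization, 151 with centring, 128 with no trend of variance, 120 in the fit of 4 group means over 12 arrays, 79 with SAM, 44 with wild-type replicate 3 alone and 97 to 131 with 1 array left out. The cause was not tested.

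Male-biased falls were 164 with no trend of variance and 57 in the fit over 12 arrays, where all falls were 295. Without sex-biased probe sets 203 falls were called. SAM, with a fold over 1.5 and a false discovery rate under 2.5%, called 192 rises and 152 falls, of them 87 male-biased and 1 female-biased falls, and 189 rises and 64 falls without sex bias. Against wild-type replicate 3 alone, which is assumed to vary like the mutants, 106 rises and 64 falls were called, with 19 male-biased and 1 female-biased falls, and 105 rises and 44 falls without sex bias. Female-biased falls were 23 at a sex-bias margin of 1 and 8 at a margin of 3.

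With 1 array left out, rises ran from 224 to 420 and falls from 209 to 401, male-biased falls from 103 to 229, female-biased falls from 3 (mutant array 3 omitted) to 19, with 8, 6 and 5 for mutant array 1, mutant array 2 and wild-type array 2, and, without sex bias, rises from 222 to 413 and falls from 98 to 175. Differences between the sexes numbered 37 with an offset of 46.4, 10 with centring, 12 with no trend of variance, 10 with the stricter filter, 11 without sex-biased probe sets and 4 to 17 with 1 array left out.

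The replicate numbers do not pair the arrays: deviations of same-numbered mutant and wild-type arrays from their group means correlated at 0.021, -0.157 and 0.127. With the replicate block 460 rises and 497 falls were called, 254 of the falls male-biased and 19 female-biased, and 454 rises and 224 falls lay outside the sex-biased classes. With the block 143 of the 164 named genes stayed called.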
